A study of Mus musculus with 4 samples.

Results

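The enzymes and scaffold proteins that write, read and erase chromatin marks in mouse liver and liver tumours are described here through 40 genes of 25793 in the count tables. The members were taken by symbol: the de novo DNA methyltransferase family, the TET dioxygenases, Polycomb subunits, histone deacetylases (HDACs), a sirtuin, histone demethylases, HMGA proteins and ATP-dependent remodellers. All 40 symbols were found in every table. RNA was sequenced from 4 mouse liver samples. Tumours 1 and 2 are labelled as liver tumours of mice that lack 1 copy each of beta-2SP, the beta-2 spectrin gene, and of SMAD3, a transcription factor gene of the TGF-beta pathway. A table labelled as normal liver of this same double heterozygous genotype and a table labelled as normal liver of a wild type mouse complete the series. The labels give no age, no treatment and no statement that the tumours came from separate animals. The p-values given below measure only the spread between tumours 1 and 2, because the normal tables entered as 1 library.

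DNA methyltransferases add methyl groups to cytosine, mostly where it precedes guanine (CpG), and TET enzymes oxidise that mark so that it can be removed. Polycomb repressive complex 2 (PRC2) methylates histone H3 and Polycomb repressive complex 1 (PRC1) binds the mark through CBX proteins and ubiquitinates histone H2A, which together hold developmental genes silent. HDACs remove acetyl groups from histones, while SWI/SNF, ISWI and CHD remodellers move nucleosomes with energy from ATP. Paralogous subunits replace each other in these complexes as liver cells mature or divide.

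Gene counts per library ran from 11049931 to 18448621. The normal tables held equal counts in 56.8% of 2632 genes with a mean count of 1 to 5, against 22.0% expected of independent libraries, so their rounded mean served as 1 normal library. They may hold some of the same reads, so likeness between their values is no agreement of separate animals. Levels are given as CPM (read counts per library size) scaled by TMM, a factor that balances the bulk of genes between libraries. Both tumour libraries, labelled as liver, were nearly empty of hepatocyte markers: the 10 markers summed to 169 and 156 CPM in tumours 1 and 2, of which Hnf4a alone gave 156.5 and 107 CPM, and to 206100 CPM in normal liver. Of 14 T cell markers in the tables, 7 were at 0 counts in both tumours, Cd3d, Cd3e and Cd3g among them, and the summed level was 3.37 and 1.88 CPM against 19.3 CPM. The submitters' short descriptions read Elf-Tcell for tumour 1, Smad-Tcell for tumour 2, Smad-Hepatocytes for the double heterozygous normal liver and mHepatocyte for the wild type one. They do not match the genotype and tissue labels, which were followed here, and the labels do not say what Tcell, Elf or Smad stand for in them. The 10 bile duct markers summed to 2931 and 2274 CPM against 54.5 CPM. The tumours differed between themselves in 14 proliferation markers, at 222 and 3440 CPM against 27.7 CPM in normal liver, and in 10 fibroblast and stellate cell markers, at 5.46 and 848 CPM against 237 CPM. Collagen, Acta2 and Pdgfr genes carried that sum in tumour 2, while Dcn, Lum, Reln and Rgs5 were over 2-fold below normal liver in both tumours. The 9 Kupffer cell and macrophage markers counted summed to 62.8 and 5.80 CPM against 184 CPM. Of these, 5 were over 2-fold below normal liver in both tumours, with 4 at 0 in both (Cd5l, Clec4f, Timd4 and Vsig4). Lyz2 (43.4 CPM against 21.9 CPM) and Marco (8.15 CPM against 1.64 CPM) lay above normal liver in tumour 1. Cd68 lay above it in tumour 2 (3.49 CPM against 2.41 CPM). The 10 endothelial markers summed to 4.31 and 12.4 CPM against 402 CPM, with Clec4g at 0 in both tumours. In such bulk libraries fewer cells of a type and less RNA per cell cannot be told apart.

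On the TMM scale all 40 regulators together stood at 1888 and 2039 CPM in the tumours and at 1986 CPM in normal liver. With library size alone these sums were 2536 and 2858 CPM against 1054 CPM, so their closeness rests on the scaling. Cbx6, a CBX reader gene of PRC1, rose, and Chd7, a CHD remodeller gene, fell. These were 1 of 38 members tested called higher and 1 called lower, which is 2.63% each, against 2.23% and 5.19% of 14468 genes (edgeR's quasi-likelihood test, Benjamini-Hochberg adjusted p under 0.05). In simulated data the same fit made more false calls than its threshold allows, which bears on both and on the edgeR calls in the gene lists below. DESeq2, which estimates the spread in another way, called 6 members higher and 3 lower, beside 12.4% and 12.3% of 13938 genes. These shares over all genes are also the measure for the calls in the gene lists below. The share of calls that were higher was 30% over all genes with TMM and 57.4% with library size alone. Hepatocyte, bile duct, Kupffer cell, endothelial and proliferation markers moved with the same comparison, and their part in these results was not tested. Dnmt3l and Hdac9 had too few counts to be tested.

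Measured by size alone, 9 of the 38 members (23.7%) were over 2-fold above normal liver in both tumours and 8 (21.1%) over 2-fold below it. For all genes tested these shares were 23.9% and 24%, so the members moved about as often as genes at large. Both tumours lay above normal liver, by any amount, for 19 members (50%) and below it for 16 (42.1%), against 43.3% and 40.1% of all genes tested. The median log2 fold change was 0.37 over the members tested and 0.19 over all genes. At an unadjusted p under 0.05 there were 7 members higher and 4 lower, 18.4% and 10.5%, against 12.5% and 15.5% of all genes. These directions rest on the scaling: with library size alone the median gene moved up by 1.37 on the log2 scale, and 21 members were over 2-fold above and 2 below normal liver. No share of all genes over 2-fold is given for that setting, so these counts are no result about the members. At an unadjusted p under 0.05 by edgeR it gave 15 members higher and 1 lower, beside 4498 and 1172 of 14468 genes.

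**Figure D1:**
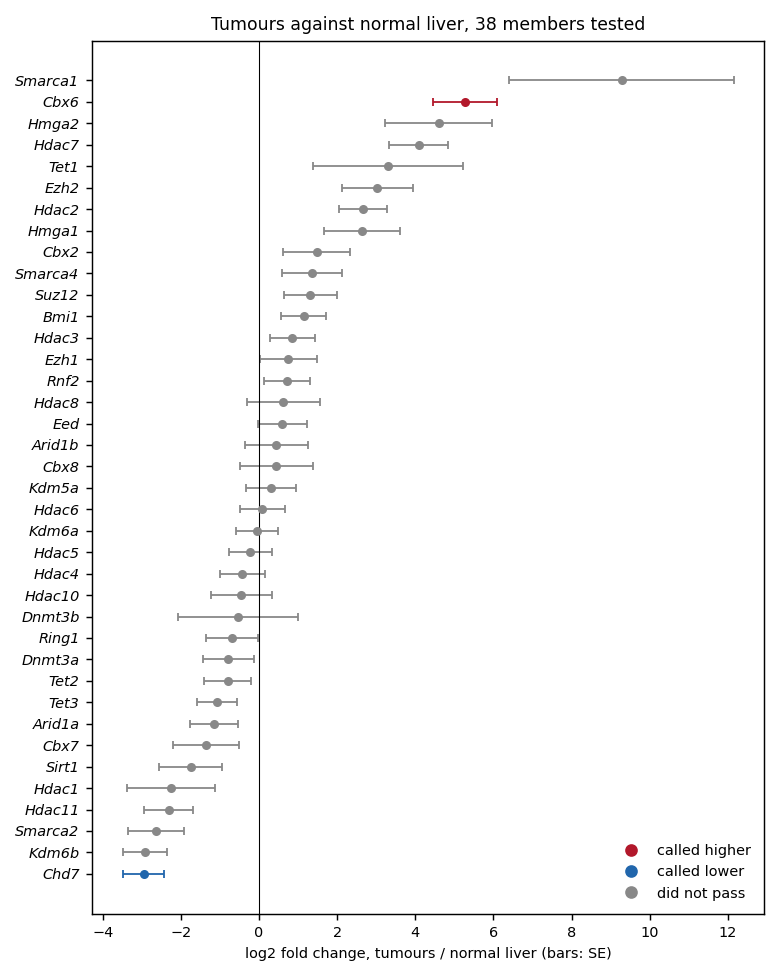
Fitted log2 fold change of tumours over normal liver (x axis) for each of the 38 members tested (y axis), with bars of 1 standard error from edgeR's quasi-likelihood fit. Cbx6 at 5.27 passed the test as higher and Chd7 at -2.96 as lower, while Smarca1, at 0 counts in normal liver, has the widest bar.

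Among the PRC1 genes Cbx6 stood out in both tumours. It had 1813 and 3723 counts in tumours 1 and 2, 38 and 37 in the double heterozygous and wild type normal tables. Its level was 161 ± 54.9 CPM (SD, n = 2) in the tumours and 4.17 CPM in normal liver. The log2 fold change was 5.27 (SE 0.82, edgeR adjusted p = 0.0410), or 38.6-fold. It kept its call without either normal table (adjusted p = 0.0447 and 0.0367) and missed it when genes had to reach 1 CPM in 2 libraries (0.0537). In the GENCODE annotation the exons of Cbx6 overlap those of Npcd on the same strand, a gene with no line in the tables, so reads of Npcd could have been counted as Cbx6.

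The start of Cbx6 is rich in CpG, the dinucleotide that the DNA methylation members act on. Of the 40 members, 33 matched the RefSeq promoter table (GRCm38.p6), with 43 starts in all. The 250 bases before these starts held a median of 20 CpG and from 0 to 51, against a median of 6 over 32851 starts of all genes. Printed here, 5′ to 3′ with each CpG in capitals, are the starts of the called gene Cbx6 and of Hmga2, Smarca1 and Tet1, the members with under 10 counts in each normal table and over 2-fold higher in both tumours. The counts come from build mm9, and the coordinates are those of the RefSeq table's build, on the minus strand.
Cbx6, chr15:79834334-79834583: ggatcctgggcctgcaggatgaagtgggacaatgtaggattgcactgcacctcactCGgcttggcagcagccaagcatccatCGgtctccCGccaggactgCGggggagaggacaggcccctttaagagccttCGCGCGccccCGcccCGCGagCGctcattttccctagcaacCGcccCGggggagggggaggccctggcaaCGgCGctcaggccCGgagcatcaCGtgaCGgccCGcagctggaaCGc
Hmga2, chr10:120476470-120476719: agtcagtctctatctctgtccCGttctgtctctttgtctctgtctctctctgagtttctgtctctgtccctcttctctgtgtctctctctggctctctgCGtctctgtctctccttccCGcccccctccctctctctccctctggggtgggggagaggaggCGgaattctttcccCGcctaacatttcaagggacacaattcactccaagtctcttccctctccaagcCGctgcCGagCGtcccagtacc
Smarca1, chrX:47892614-47892863: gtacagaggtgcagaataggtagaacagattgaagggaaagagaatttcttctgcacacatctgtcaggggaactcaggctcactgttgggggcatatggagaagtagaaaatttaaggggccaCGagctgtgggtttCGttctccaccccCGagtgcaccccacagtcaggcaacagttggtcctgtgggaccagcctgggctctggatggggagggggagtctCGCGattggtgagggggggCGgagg
Tet1, chr10:62887325-62887574: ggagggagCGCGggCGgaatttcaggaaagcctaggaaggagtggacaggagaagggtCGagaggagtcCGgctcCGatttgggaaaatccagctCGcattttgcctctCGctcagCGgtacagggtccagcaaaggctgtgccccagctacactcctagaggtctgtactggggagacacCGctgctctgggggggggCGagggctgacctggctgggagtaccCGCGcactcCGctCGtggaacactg
Cbx6 held 20 CpG in this stretch, Tet1 15, Hmga2 8 and Smarca1 6. The letters TTTNNCGC, a form of the E2F motif of dividing cells, were searched on both strands and occurred in 2 of the 43 member starts (4.65%), those of Suz12 and Arid1a, against 4.28% of all starts. A match is a description of letters and no evidence of binding.

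None of the other CBX genes passed the test, and their positions differed. Cbx7, the CBX gene with the highest level per length in normal liver, had 103 and 77 counts in the tumours against 118 and 142 in the normal tables, or 6.94 and 4.13 CPM against 14.2 CPM (adjusted p = 0.352, log2 fold change -1.36 with an SE of 0.85). With library size alone the log2 fold change of Cbx7 was -0.00086, so its fall rests on the scaling. Cbx2 had 184 and 475 counts against 57 and 68, and was 2.79-fold higher with an adjusted p of 0.324. Cbx8 had 89 and 187 against 49 and 58 (adjusted p = 0.785), with tumour 1 level with normal liver. Divided by the length of each gene's longest coding transcript, Cbx6 made up 75.1% and 76.2% of the summed Cbx2, Cbx6, Cbx7 and Cbx8 level in the tumours and 8.58% in normal liver. Cbx7 made up 7.31% and 2.70% of it against 50.3%. These shares compare genes inside a library and do not depend on scaling. Cbx7 shares exon sequence with Apobec3 on the opposite strand, and the sources used here do not say whether counting used strand.

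The catalytic and core genes of PRC1 differed less from normal liver than Cbx6 and did not pass. Bmi1, which activates the ubiquitin ligase, had 1031 and 1100 counts in the tumours against 234 and 299, and was just over 2-fold higher in both (adjusted p = 0.274, log2 fold change 1.14 with an SE of 0.58). Of Bmi1's 31-base stretches, 28.1% occur in another gene, so its counts are uncertain. The ligase gene Rnf2 had 1053 and 930 counts against 318 and 354 (1.64-fold, adjusted p = 0.472). Its paralog Ring1 had 204 and 209 counts against 161 and 206, a scaled level of 13.7 and 11.2 CPM against 20.2 CPM (log2 fold change -0.69, adjusted p = 0.528), a sign that turned with library size alone. Per kilobase, Rnf2 stood at 1.16 times Ring1 in normal liver and at 3.28 and 2.83 times Ring1 in the tumours.

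In PRC2 the methyltransferase gene Ezh2 was higher in both tumours, unequally so. It had 422 and 1265 counts in tumours 1 and 2 against 43 and 64 in the normal tables. The level was 28.4 and 67.9 CPM against 5.92 CPM. Both tumours thus lay above normal liver, as they did for 43.3% of all genes tested. The log2 fold change of 3.02 (SE 0.91) missed the threshold (edgeR adjusted p = 0.128, unadjusted p = 0.0258), and DESeq2 called it (adjusted p = 0.0136). Ezh1, the paralog of resting cells, had 726 and 458 counts against 181 and 218 and was highest in tumour 1 (48.9 CPM, against 24.6 CPM in tumour 2 and 21.9 CPM in normal liver). Per kilobase Ezh2 was at 0.408 times Ezh1 in normal liver, at 0.877 times in tumour 1 and at 4.17 times in tumour 2.

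The scaffold genes of PRC2 were above normal liver in both tumours without passing the test. Suz12 had 1178 and 2708 counts against 394 and 433 (2.48-fold, adjusted p = 0.284). Eed, which reads the complex's own mark, had 449 and 843 counts against 193 and 262 (1.51-fold, adjusted p = 0.572). In all 3 of Ezh2, Suz12 and Eed tumour 2 stood above tumour 1, as did the summed proliferation markers, whose part in the result was not tested. Of 7 other PRC2 and accessory genes, 0 passed edgeR in either direction (0 higher and 1 lower at an unadjusted p under 0.05, 0 and 0 by DESeq2), with a median log2 fold change of 1.07. Rbbp7, a histone-binding subunit gene, was at 125 and 163 CPM against 48.2 CPM (adjusted p = 0.183, 19.4% sequence shared with other genes), and its paralog Rbbp4 at 100 and 218 CPM against 152 CPM (adjusted p = 0.957, 22.3% sequence shared with other genes). Jarid2, which helps recruit PRC2, had 13.7 and 15.6 CPM beside a normal level of 28.2 CPM (adjusted p = 0.368). Of 20 other PRC1 genes 19 were tested and 0 passed edgeR (1 higher and 0 lower unadjusted, 1 and 0 by DESeq2), with Pcgf2, the paralog of Bmi1, at 3.97 and 3.65 CPM against 5.15 CPM.

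**Figure D2:**
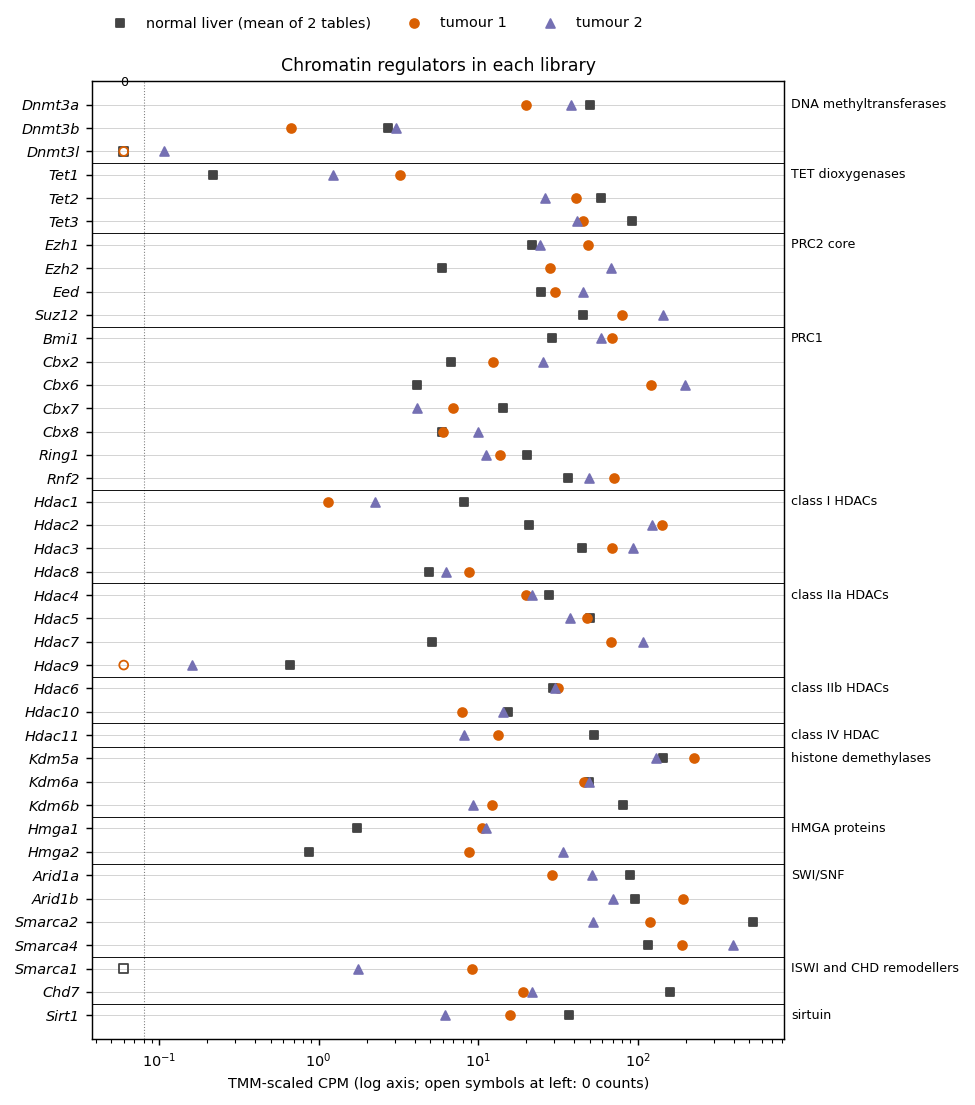
Level of each of the 40 members (y axis, grouped by role) in TMM-scaled CPM on a log axis, in normal liver (squares, mean of the 2 normal tables), tumour 1 (circles) and tumour 2 (triangles), with open symbols at the left for 0 counts. Cbx6, Hdac2, Hdac7 and Ezh2 have both tumours to the right of normal liver, and Chd7, Kdm6b, Hdac11 and Smarca2 both to the left.

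Genes known to be held silent by Polycomb were examined next to the subunits. At the Ink4 locus, Cdkn2a, a cell cycle inhibitor gene and classical Polycomb target, had 90 and 254 counts in the tumours against 0 and 1 in the normal tables (edgeR adjusted p = 0.0676). Cdkn2b beside it had 536 and 259 counts against 4 and 4 (adjusted p = 0.0707, log2 fold change 5.81 with an SE of 1.23). Both were higher in both tumours and neither passed. Of 41 Ink4 and Hox genes only 11 had counts enough to be tested, 29 were at 0 in both normal tables and 10 at 0 in both tumours. Of the 11, 0 passed edgeR (2 higher and 0 lower at an unadjusted p under 0.05), and DESeq2 called Cdkn2a and Cdkn2b.

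Of the de novo DNA methyltransferases, Dnmt3a was the main one in every library. It had 298 and 710 counts in tumours 1 and 2 against 423 and 491 in the normal tables. At 20.1 and 38.1 CPM the tumours lay below the 50.1 CPM of normal liver (adjusted p = 0.478, log2 fold change -0.78 with an SE of 0.66), and the sign turned with library size alone. Dnmt3b had 10 and 57 counts against 19 and 31, with tumour 1 below and tumour 2 just above normal liver (adjusted p = 0.837, 19.6% sequence shared with other genes), and its sign turned likewise. Per kilobase Dnmt3a exceeded Dnmt3b 8.15-fold in normal liver, 13.3-fold in tumour 1 and 5.56-fold in tumour 2. Dnmt3l, a cofactor without catalytic activity known from germ cells, had 0 and 2 counts in the tumours and 0 in both normal tables, under the floor of 3 counts.

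The maintenance enzyme gene Dnmt1 showed another pattern, with 1094 and 8641 counts in the tumours against 144 and 205. That is 73.7 and 464 CPM against 19.1 CPM (adjusted p = 0.185, log2 fold change 3.82 with an SE of 1.45). Its partner Uhrf1, which brings it to newly replicated DNA, had 249 and 3977 counts against 1 and 2 (adjusted p = 0.115, 24.8% sequence shared with other genes). Both were higher in tumour 2 than in tumour 1, in the order of the proliferation markers, whose part was not tested. Of 16 such writer, reader and removal genes 0 passed edgeR, 4 were higher and 1 lower at an unadjusted p under 0.05, DESeq2 called 4 higher and 0 lower, and the median log2 fold change was 1.40. Of 20 germline genes known to be silenced by promoter methylation 19 were in the tables and 3 could be tested. The summed level of the 19 was 3.57 and 50.9 CPM in tumours 1 and 2 against 2.30 CPM. Of the 3 tested, 0 passed edgeR (0 in either direction unadjusted, 1 higher by DESeq2).

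Tet2 and Tet3 gave nearly all of the TET level in every library. Tet3 had 673 and 779 counts in the tumours against 815 and 865, or 45.3 and 41.8 CPM against 92.1 CPM (adjusted p = 0.255, log2 fold change -1.08 with an SE of 0.52). Tet2 had 612 and 490 counts against 510 and 567, or 41.2 and 26.3 CPM against 59.0 CPM (adjusted p = 0.423). For both, the lower position of the tumours turned with library size alone. Tet1, the TET gene of pluripotent cells, had 48 and 23 counts against 2 and 2, a rate ratio of 9.68 (exact 95% interval 2.58 to 81.4, counting error only), and its adjusted p was 0.326. Per kilobase Tet1 was still only 2.54% and 1.27% of the summed TET level in the tumours, against 0.103% in normal liver.

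Class I HDACs, the nuclear enzymes of the corepressor complexes, include Hdac2, the most abundant of them per kilobase in tumour 1 and after Hdac3 in tumour 2. Hdac2 had 2110 and 2304 counts in tumours 1 and 2 against 171 and 211 in the normal tables. The level was 133 ± 13.1 CPM (SD, n = 2) against 20.9 CPM, a gap far wider than that between the tumours. Its log2 fold change of 2.67 (SE 0.61) missed the threshold (edgeR adjusted p = 0.0815), while DESeq2 called it (adjusted p = 0.00510). Hdac3, the partner of the NCoR corepressors, had 1025 and 1757 counts against 378 and 446 (1.81-fold, adjusted p = 0.389). Hdac8 had 131 and 118 counts against 31 and 59 (1.54-fold, adjusted p = 0.696).

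The counts of Hdac1, the paralog of Hdac2, are uncertain in these tables. They numbered 17 and 42 in the tumours, 6 in the double heterozygous normal table and 141 in the wild type one, and 34.6% of its 31-base stretches occur in another gene. Its log2 fold change was -2.25 (adjusted p = 0.269) and turned to 1.19 without the table labelled wild type. It was the 1 member of 27 with at least 10 CPM in a normal table that differed over 2-fold between those tables (3.70%, against 4.42% of 8267 genes). The percentage of alignments that were not unique also differed between them, at 51.5% and 30.7%, and its part was not tested.

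Among class IIa HDACs, which shuttle between nucleus and cytoplasm and repress MEF2 factors, Hdac7 was far higher in both tumours. It had 1014 and 2006 counts against 40 and 54, or 88.0 ± 27.8 CPM (SD, n = 2) against 5.15 CPM. This 17.1-fold difference (log2 fold change 4.09, SE 0.75) lay just outside the threshold (edgeR adjusted p = 0.0542). It was called under upper quartile scaling (0.0457), with library size alone (0.0384), with no low-count filter (0.0145) and by DESeq2 (3.58e-05). Hdac7 overlaps Slc48a1 on the opposite strand.

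The other class II members tested did not pass. Hdac5 had 720 and 708 counts against 400 and 521, or 48.5 and 38 CPM against 50.4 CPM (adjusted p = 0.818). Hdac4 had 295 and 406 counts against 209 and 301 (log2 fold change -0.42, adjusted p = 0.666, 20.6% sequence shared with other genes). Both signs turned with library size alone, and that of Hdac5 under upper quartile scaling too. Hdac9 had 0 and 3 counts against 6 and 6, too few to test. The tubulin deacetylase gene Hdac6 stood close to normal liver, at 31.7 and 30.6 CPM against 29.5 CPM (adjusted p = 0.941, log2 fold change 0.08 with an SE of 0.58). With library size alone the log2 fold change of Hdac6 was 1.45, so this closeness rests on the scaling. Hdac10, a polyamine deacetylase gene, was at 7.95 and 14.4 CPM against 15.3 CPM (adjusted p = 0.733), with a sign that also turned with library size alone.

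Hdac11, the single class IV gene, was lower in both tumours. It had 198 and 153 counts against 462 and 518, or 13.3 and 8.21 CPM against 53.7 CPM (adjusted p = 0.109, log2 fold change -2.32 with an SE of 0.63, 14.1% sequence shared with other genes). Its share of the summed HDAC level per kilobase was 24.1% in normal liver and 3.95% and 2.19% in the tumours. Hdac2 went from 7.66% to 34.3% and 26.9%, Hdac7 from 1.45% to 12.7% and 18.0%, and Hdac3 held 26.4%, 26.7% and 32.8%. Hdac3 and Hdac11 thus led in normal liver, and Hdac2 and Hdac3 in both tumours.

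Sirt1, an NAD-dependent deacetylase gene linked to fasting metabolism in liver, had 235 and 115 counts against 313 and 363. At 15.8 and 6.17 CPM both tumours lay over 2-fold below the 37.0 CPM of normal liver (adjusted p = 0.237, log2 fold change -1.75 with an SE of 0.80). With library size alone the log2 fold change of Sirt1 was -0.39, so the size of this fall rests on the scaling. Of 26 HDAC and sirtuin partner genes 1 fell and 0 rose by edgeR (4 higher and 2 lower unadjusted, 2 and 1 by DESeq2), with a median log2 fold change of 0.32. The gene that fell was Sirt3, the main mitochondrial deacetylase, at 7.14 and 6.71 CPM against 101 CPM (adjusted p = 0.0358, log2 fold change -3.87 with an SE of 0.55, 12.5% sequence shared with other genes). Kdm1a, a histone demethylase gene of the CoREST complex, had 68.0 and 98.6 CPM beside a normal level of 27.1 CPM (adjusted p = 0.187).

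Of the histone demethylases, Kdm6b and Kdm6a remove the mark that PRC2 writes. Kdm6b had 182 and 173 counts in the tumours against 658 and 826. The level was 10.8 ± 2.10 CPM (SD, n = 2) against 81.3 CPM, with the tumours close to each other. The log2 fold change of -2.92 (SE 0.57) missed the threshold (edgeR adjusted p = 0.0603), while DESeq2 called it (0.00475), as did edgeR with no low-count filter (0.0254). Kdm6a, its X-linked paralog, had 683 and 919 counts against 386 and 518 and near-equal scaled levels of 46.0 and 49.3 CPM against 49.5 CPM (adjusted p = 0.956, log2 fold change -0.06 with an SE of 0.54). Kdm5a, which removes an activating methyl mark, was at 226 and 130 CPM against 144 CPM, with normal liver between the tumours (adjusted p = 0.778). Of 16 other demethylase genes counted, 15 were tested and 0 passed edgeR (0 higher and 1 lower unadjusted, 0 and 1 by DESeq2), with a median log2 fold change of -0.02.

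Among writers of lysine methylation other than Ezh1 and Ezh2, of 25 genes tested 1 fell and 0 rose by edgeR, against 5.19% and 2.23% of all genes. At an unadjusted p under 0.05 by edgeR 2 were higher and 9 lower, against 12.5% and 15.5% of all genes. DESeq2 called 2 higher and 4 lower, against 12.4% and 12.3% of all genes. The median log2 fold change was -0.56, within the shift of 1.37 that library size alone gave the median gene. Setd1b, a writer of an activating mark, fell from 90.5 CPM to 3.44 and 4.88 CPM (edgeR adjusted p = 0.0338, log2 fold change -4.44 with an SE of 0.61). Of 16 acetyltransferase and bromodomain genes 0 passed edgeR (0 higher and 2 lower unadjusted, 0 and 1 by DESeq2), with a median of -0.26.

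The ATPase genes of SWI/SNF changed places. Smarca2, the ATPase of differentiated cells, was the most abundant member per kilobase in normal liver. It had 1765 and 977 counts in tumours 1 and 2 against 4382 and 5265, or 119 and 52.4 CPM against 529 CPM (edgeR adjusted p = 0.110, log2 fold change -2.63 with an SE of 0.72). Smarca4, its paralog in dividing and progenitor cells, had 2819 and 7447 counts against 1000 and 1113, or 190 and 400 CPM against 116 CPM (adjusted p = 0.316, log2 fold change 1.35 with an SE of 0.76). Both tumours lay below normal liver for Smarca2 and above it for Smarca4, as they did for 40.1% and 43.3% of all genes tested. Neither difference passed. DESeq2 called Smarca2 (adjusted p = 0.0164). Smarca4 made up 16.9% of the summed level of both per kilobase in normal liver, 59.7% in tumour 1 and 87.6% in tumour 2. In the normal tables this share was 17.5% and 16.4%.

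**Figure D3:**
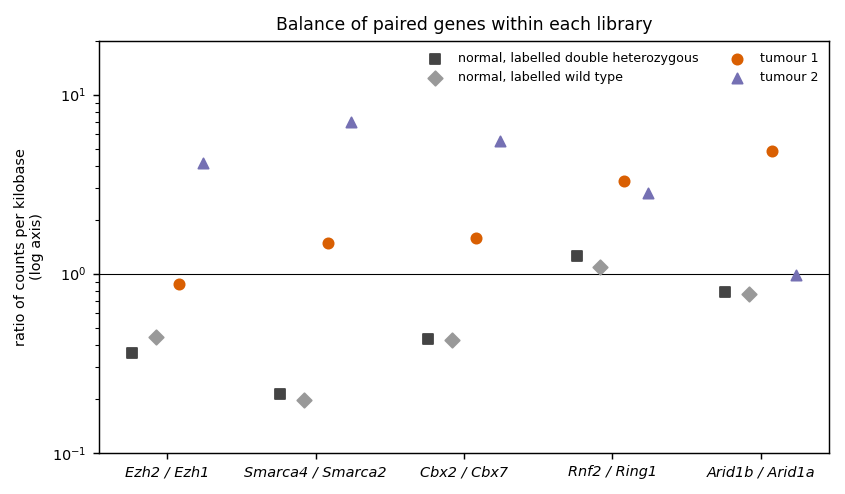
Ratio of counts per kilobase of the first to the second gene of each pair (x axis) on a log axis (y axis), in both normal tables and both tumours, with a line at equal levels. Smarca4 over Smarca2 lay at 0.212 and 0.196 in the normal tables and at 1.48 and 7.08 in tumours 1 and 2, and Arid1b over Arid1a was high in tumour 1 only.

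The ARID1 subunits, of which each complex holds a single one, split the tumours. Arid1a had 429 and 965 counts against 775 and 871, or 28.9 and 51.8 CPM against 90.2 CPM (adjusted p = 0.292, log2 fold change -1.16 with an SE of 0.62), a sign that turned with library size alone. Arid1b had 2862 and 1316 counts against 846 and 924, or 193 and 70.6 CPM against 97 CPM, so tumour 1 was above and tumour 2 below normal liver (adjusted p = 0.749). Per kilobase Arid1b stood at 0.777 times Arid1a in normal liver, at 4.82 times in tumour 1 and at 0.986 times in tumour 2. Of 23 other SWI/SNF genes 19 were tested and 0 passed edgeR (2 higher and 0 lower unadjusted, 1 and 0 by DESeq2), with a median log2 fold change of 0.90. Smarcb1, a core subunit gene, was at 48.6 and 60.1 CPM against 14.4 CPM (adjusted p = 0.146).

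Chd7, a remodeller gene known for enhancer binding in development, was the member that fell. It had 285 and 405 counts in the tumours against 1347 and 1551 in the normal tables. The level was 20.5 ± 1.79 CPM (SD, n = 2) against 159 CPM, with the tumours almost equal. The log2 fold change was -2.96 (SE 0.52, edgeR adjusted p = 0.0497). The call was at the edge of the threshold and ended without the table labelled wild type (adjusted p = 0.0502), without genes with shared sequence (0.0504), under upper quartile scaling (0.0546), with a minimum of 1 CPM in 2 libraries (0.0574) and with library size alone (0.112), each with the same sign.

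Smarca1, an ISWI ATPase gene, was at 0 counts in both normal tables and at 136 and 33 in tumours 1 and 2. Its tumour mean of 5.47 CPM was at least 16.6-fold higher than the floor of 3 counts in the normal library (0.329 CPM), with an edgeR adjusted p of 0.135, and DESeq2 called it (0.0148). Tumour 1 held most of it, with 9.16 CPM against 1.77 CPM in tumour 2. Of 21 other ISWI, CHD and INO80 genes 0 passed edgeR (1 higher and 1 lower unadjusted, 1 and 1 by DESeq2), and their median log2 fold change was 0.06.

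The HMGA genes encode small proteins that bend AT-rich DNA and are abundant in embryos and scarce in adult tissue. Hmga2 had 131 and 637 counts in the tumours against 8 and 8, or 8.83 and 34.2 CPM against 0.877 CPM (24.3-fold, adjusted p = 0.126, log2 fold change 4.60 with an SE of 1.37). Both tumours were above normal liver, and tumour 2 was well above tumour 1. DESeq2 called it (adjusted p = 0.00307). Hmga1 had 158 and 210 counts against 6 and 27 (6.22-fold, adjusted p = 0.178), but 60.9% of its 31-base stretches occur elsewhere and the normal tables differ. Of 15 HMG, let-7 and LIN28 genes counted, 14 were tested and 1 rose (5 by DESeq2), with a median log2 fold change of 2.52. Over all genes 2.23% rose by edgeR and 12.4% by DESeq2. The gene of this list that rose by edgeR was Igf2bp2, an RNA-binding protein gene known as a target of HMGA2. Igf2bp2 was at 48.4 and 57.2 CPM against 1.10 CPM (adjusted p = 0.0358, log2 fold change 5.58 with an SE of 0.80). Igf2bp3 had 2 and 713 counts against 1 and 1 (adjusted p = 0.303), and Lin28b, which blocks let-7, had 12 and 0 against 0 and 0, too few to test.

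The tumours also differed from each other, as single libraries with no test. Of 32 members with at least 10 CPM in either tumour, 4 (12.5%) were over 2-fold higher in tumour 2 and 3 (9.38%) over 2-fold higher in tumour 1, against 15.8% and 12.1% of 9626 genes. Higher in tumour 2 were Hmga2 (log2 ratio 1.94), Ezh2 (1.25), Smarca4 (1.07) and Cbx2 (1.03). Higher in tumour 1 were Arid1b (a log2 ratio of -1.45 for tumour 2 over tumour 1), Sirt1 (-1.34) and Smarca2 (-1.18), with Ezh1 just short of 2-fold (-0.99). Nearest to equal were Hdac6 (-0.05), Hmga1 (0.08), Kdm6a (0.10), Tet3 (-0.12), Hdac4 (0.13) and Chd7 (0.18). Proliferation markers and fibroblast and stellate cell markers were also higher in tumour 2, and their part in these ratios was not tested. The median absolute log2 ratio was 0.67 over the members and 0.58 over all genes.

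**Figure D4:**
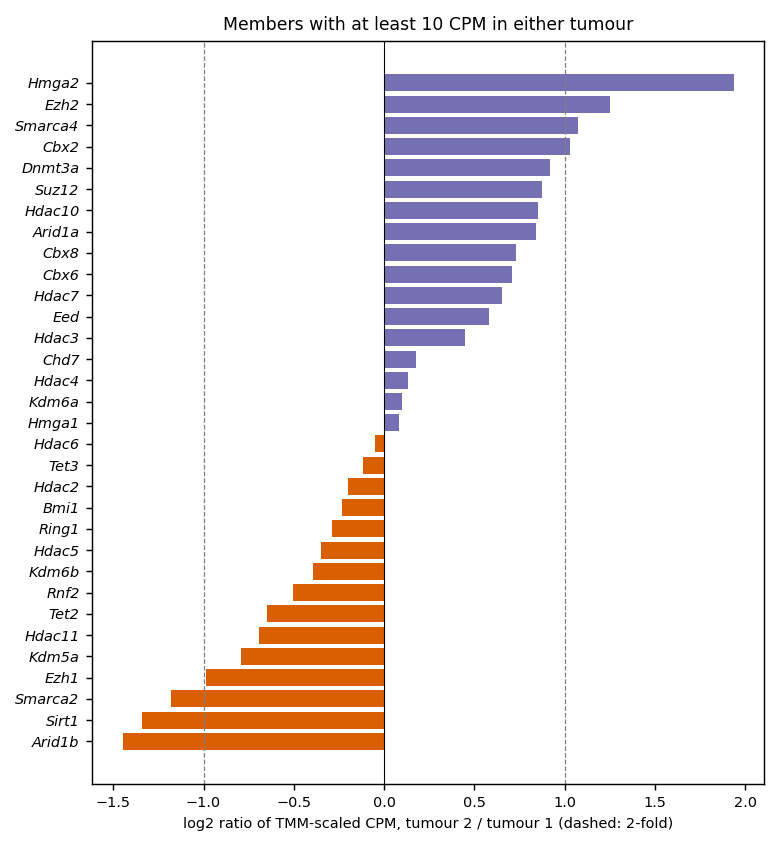
Log2 ratio of TMM-scaled CPM in tumour 2 over tumour 1 (x axis) for the members with at least 10 CPM in either tumour (y axis), with dashed lines at 2-fold. Hmga2, Ezh2, Smarca4 and Cbx2 lie beyond the line toward tumour 2, and Arid1b, Sirt1 and Smarca2 toward tumour 1.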

How the data were processed

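Total RNA of 4 mouse liver samples was extracted with TRIZOL and made into Illumina TruSeq libraries, per the labels' protocols. The authors deposited raw read counts per gene symbol, whole numbers without normalization. The submitters' processing notes name, with no role or settings, mm9 as the build, and TopHat2 2.0.10, HTSeq, Trimmomatic, FastQC and DESeq2 as tools. The 5 lines per table that name no gene were left out of library sizes (13.6% to 31.5% outside genes, 30.7% to 51.5% not unique).

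Groups follow the titles. The rounded mean of the normal tables was 1 library, because they share counts beyond sampling. Tumours and normal liver were compared in R 4.3.3 with edgeR 4.0.16 (TMM, filterByExpr with a minimum count of 10, glmQLFit, glmQLFTest, Benjamini-Hochberg adjusted p under 0.05) over 14468 genes, with 1 residual degree of freedom. That degree of freedom came from the tumours. The SE is the absolute log2 fold change over the square root of F. DESeq2 1.42.0 was an alternative. Ratios of 1 library to 1 used a prior count of 2. Tested on simulated data, the fit gave more false calls than the nominal share at the spread estimated here. Lengths and shared sequence (over 10% of a gene's 31-mers, 1 in 16 sampled, found in another gene) come from GENCODE M21 transcripts (GRCm38), which matched 89.3% of symbols. Of the members, 6 have shared sequence, and the exons of 20 overlap another gene there. Intervals and floors cover counting error only.

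The members, gene lists and marker lists were chosen with earlier results of these data known. The text names all members, 12 fixed genes of the other lists, and at most 3 called genes per list and direction; genes picked after their values were seen are marked so. No sequence coordinates of mm9 were used.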

Additional observations from a re-analysis of the deposited data

How the results depend on the processing

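With 1 residual degree of freedom the counts of calls moved widely with the settings. Against 322 genes called higher and 751 lower, DESeq2 gave 1728 and 1719, no low-count filter 903 and 1383, the normal tables as 2 libraries 3058 and 3157, and library size alone 635 and 472, which moved the share of higher calls from 30.0% to 57.4%. A minimum of 1 CPM in 2 libraries gave 0 and 0 by edgeR (lowest adjusted p = 0.0533, with 1940 higher and 1690 lower at an unadjusted p under 0.05). Without either of the normal tables there were 278 to 422 higher and 695 to 838 lower.

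Against 1 member higher and 1 lower, DESeq2 called 6 and 3, no filter 3 and 2, the normal tables as 2 libraries 8 and 5, upper quartile scaling 2 and 0, library size alone 3 and 0, and the minimum of 1 CPM 0 and 0 (7 and 4 unadjusted by edgeR). Without genes with shared sequence 0 were lower, and with either of the normal tables left out 1 was higher and 0 to 1 lower. Of 9 members over 2-fold higher in both tumours and 8 lower, library size alone gave 21 and 2, upper quartile scaling 5 lower, a 4-fold limit 3 lower, and leaving out a library 8 to 13 higher and 7 to 11 lower. No like shares of all genes are given for these other settings.

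Signs turned, none past the threshold, with library size alone for Arid1a (0.22), Dnmt3a (0.60), Dnmt3b (0.84), Hdac10 (0.92), Hdac4 (0.95), Hdac5 (1.15), Kdm6a (1.32), Ring1 (0.68), Tet2 (0.56) and Tet3 (0.29). They turned under upper quartile scaling for Hdac5 (0.013) and Kdm6a (0.17), with no filter for Kdm6a (0.0018), with the minimum of 1 CPM for Hdac6 (-0.0087) and without the table labelled wild type for Hdac1 (1.19, and -3.06 without the double heterozygous one). Fewer genes enter under the minimum of 1 CPM, and the cause of the other changes was not tested. Upper quartile scaling shifted the median gene by 0.228 and library size alone by 1.37. No paired analysis was possible because the titles tie no tumour to a normal table and the normal tables entered as 1 library. Ratios of tumour 2 alone turned for Arid1b (-0.46), Kdm5a (-0.14) and Dnmt3b (0.15). Without a tumour no residual degree of freedom is left, so only ratios with no test were formed.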

Other observations

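Mll1, Mll2, Mll3, Mll5 and Wbp7, histone lysine methyltransferase family genes picked with their values in view, lay over 2-fold below normal liver in both tumours, as did 24% of all genes tested, and none passed edgeR. Mll2 was at 1059 and 1882 counts in tumours 1 and 2 against 3722 and 4167 in the normal tables (log2 fold change -2.33, edgeR adjusted p = 0.0906), and Mll3 at 1386 and 761 against 2886 and 3249 (-2.33, adjusted p = 0.129). DESeq2 called these 2 lower. With library size alone the log2 fold changes were -0.95 for Mll2, -0.97 for Mll3, -0.50 for Mll5, -0.19 for Wbp7 and 0.08 for Mll1, so the sign of Mll1 rests on the scaling. In the same list Setd7, picked likewise, had 1617 and 1599 counts against 119 and 124 (2.86, adjusted p = 0.0768).

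Zfp57, which encodes a zinc finger protein that protects methylation at imprinted loci, had 233 and 611 counts in the tumours against 3 and 3 in the normal tables (edgeR adjusted p = 0.0558), also picked after its values were seen. Its partner Trim28 was at 4737 and 7460 counts against 848 and 1003 (log2 fold change 1.83, adjusted p = 0.167).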
